A study of Mus musculus with 28 samples.

Results

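The 10 imprinted genes described here are Grb10, Igf2, H19, Dlk1, Meg3, Peg3, Mest, Plagl1, Igf2r and Zim1, of 19421 genes in the table of the series. Grb10 was chosen on its measured level, which is low in the line called iP+A, and the other 9 were named as imprinted genes beside it. The levels of Grb10 in iP+A are therefore a description and carry no test. All 10 genes passed the filter on low values, which kept 16837 genes.

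The samples are mouse embryonic stem cell lines, derived from A2lox cells, that carry a doxycycline (Dox) inducible cassette for transcription factors of the inner ear and of neurons. The lines iAtoh1, iGfi1 and iPou4f3 carry Atoh1, Gfi1 or Pou4f3 alone, iG+A, iG+P and iP+A carry a pair of them, and iGPA carries all 3, each followed by the reporter mVenus behind a 2A peptide. Embryoid bodies (EBs) of the 7 lines were collected at day 6, either as whole untreated EBs (No Dox) or as mVenus+ cells sorted after 48 h of Dox at 2 µg/ml from day 4 (Dox). Each of the 14 groups has 2 libraries, said in the series record to be separate clones of 1 line, so the 28 libraries compare engineered clones as well as conditions. Every Dox library was sorted and no untreated library was, and Dox and sorting cannot be told apart. EBs are mixtures, and in bulk RNA fewer cells of a type and less RNA per cell cannot be told apart. The libraries give the sum of both parental alleles, and the allele that a read came from was not measured.

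An imprinted gene is expressed mainly from the copy inherited from the mother or from the one inherited from the father, according to a methylation mark set in the germ line and kept through early development. Imprinted genes lie in clusters that share control regions, and many of them act on growth of the embryo and placenta. Cultured embryonic stem cells are known to gain or lose such marks.

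Grb10 encodes an adaptor protein that binds insulin and IGF receptors and restrains their signal, and it is expressed from the maternal copy in most tissues. Igf2, a paternally expressed growth factor, and H19, a maternally expressed long noncoding RNA, share a control region, and Igf2r encodes the maternally expressed receptor that takes up IGF2 for degradation. Dlk1, a paternally expressed membrane protein of the Notch ligand family, and Meg3, a maternally expressed long noncoding RNA, share a domain that also holds Rtl1, Rian, Mirg and Dio3. Peg3, a paternally expressed zinc finger gene, lies beside Zim1, a maternally expressed one. Mest encodes a paternally expressed protein of the hydrolase family, and Plagl1 a paternally expressed zinc finger transcription factor.

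On NCBIM37, the build of the deposited values (mm9), Grb10 (Entrez 14783) is on the minus strand at chr11:11830511-11938686. Igf2 (Entrez 16002, chr7:149836673-149852721) and H19 (Entrez 14955, chr7:149761434-149764048) are neighbours on the minus strand of chromosome 7, as are Peg3 (Entrez 18616, chr7:6656603-6683132) and Zim1 (Entrez 22776, chr7:6628154-6649161). Dlk1 (Entrez 13386, chr12:110691033-110701546) and Meg3 (Entrez 17263, chr12:110779211-110809936) lie on the plus strand of chromosome 12. Mest (Entrez 17294) is at chr6:30673547-30698457 and Plagl1 (Entrez 22634) at chr10:12810497-12851500, both on the plus strand, and Igf2r (Entrez 16004) at chr17:12875272-12962530 on the minus strand. The annotation lists H19 and Meg3 as noncoding and the other 8 genes as protein-coding. Igf2r overlaps the antisense RNA Airn (chr17:12934177-13052988), and because Kallisto was run with its default settings, which do not use strand, reads of the 2 cannot be told apart where their exons overlap.

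The RefSeq promoter windows of Grb10 are shown because its level separated 1 line from the others, and that of Nnat because this imprinted gene, outside the 10, separated the lines in another way. The windows run from 250 bases before to 50 after an annotated start on GRCm38.p6, a later build than that of the values, and CG dinucleotides, the sites of DNA methylation, are in capitals. RefSeq windows were found for 9 of the 10 genes, 16 windows in all. The first Grb10 window is chr11:12037371-12037670 and the second chr11:12027922-12028221, both on the minus strand, and that of Nnat is chr2:157559828-157560127 on the plus strand.
Grb10, first window: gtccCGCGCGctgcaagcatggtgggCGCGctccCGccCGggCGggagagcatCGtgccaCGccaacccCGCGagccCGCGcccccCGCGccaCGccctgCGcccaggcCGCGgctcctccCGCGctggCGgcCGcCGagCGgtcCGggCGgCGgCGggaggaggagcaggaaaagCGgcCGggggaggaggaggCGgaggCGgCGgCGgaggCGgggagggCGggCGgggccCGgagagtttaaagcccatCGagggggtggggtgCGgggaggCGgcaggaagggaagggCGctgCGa
Grb10, second window: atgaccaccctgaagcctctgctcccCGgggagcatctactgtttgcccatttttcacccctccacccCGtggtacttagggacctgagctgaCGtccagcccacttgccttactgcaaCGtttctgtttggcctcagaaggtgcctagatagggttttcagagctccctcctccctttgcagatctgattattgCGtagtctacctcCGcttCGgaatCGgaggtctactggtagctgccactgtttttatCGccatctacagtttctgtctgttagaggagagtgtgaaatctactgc
Nnat: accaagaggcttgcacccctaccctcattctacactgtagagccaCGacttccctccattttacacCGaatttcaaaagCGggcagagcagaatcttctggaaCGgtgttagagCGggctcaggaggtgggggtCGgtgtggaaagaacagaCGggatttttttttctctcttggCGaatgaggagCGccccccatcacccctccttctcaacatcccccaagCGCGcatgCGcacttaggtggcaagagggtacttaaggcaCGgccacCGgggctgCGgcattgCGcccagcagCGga
The first Grb10 window holds 45 CG dinucleotides, and 98.1% of 32851 RefSeq promoter windows hold fewer. The second holds 9 and that of Nnat 17, against a median of 7 over all windows. The letters TGCCGC, which the imprint-keeping protein ZFP57 binds when methylated, occurred once on either strand in the first Grb10 window and once in that of Nnat, and 11.6% of all windows held them. These are matches of letters in a window, and methylation was not measured.

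Grb10 was present at 22828 to 48691 normalized counts in all 6 lines other than iP+A, and at 390 to 654 in iP+A. A normalized count is a read count that the authors scaled between libraries. The untreated iP+A libraries had 518.6 and 654.3 normalized counts of Grb10, and the Dox libraries 526.3 and 389.9. In the other lines the untreated levels were 42453 and 30621 in iAtoh1, 40614 and 37818 in iGfi1, 32637 and 39487 in iPou4f3, 29931 and 37102 in iG+A, 45702 and 40945 in iG+P, and 34070 and 28580 in iGPA. The 24 libraries of these lines thus did not overlap with the 4 of iP+A, and the lowest of them was 34.9 times the highest iP+A library.

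The geometric mean of Grb10 in the other 6 lines was 62.3 times that of iP+A without Dox and 70.0 times with Dox. Both clones of iP+A were low, in both conditions, so the low level did not begin with Dox. On the log2 scale the untreated difference was -5.96, the most negative of all 16837 genes, and it was also the lowest among the 7530 genes with a mean of at least 1000 normalized counts in the other untreated lines. Only 1 other gene was at least 16-fold lower in untreated iP+A. It was Ntng1, which encodes a netrin family protein of neurons, at 2.63 to 3.13 normalized counts in untreated iP+A and 54.1 to 322 in the other untreated lines. Unlike Grb10, Ntng1 was at 190 to 313 normalized counts in the iP+A Dox libraries.

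**Figure D1:**
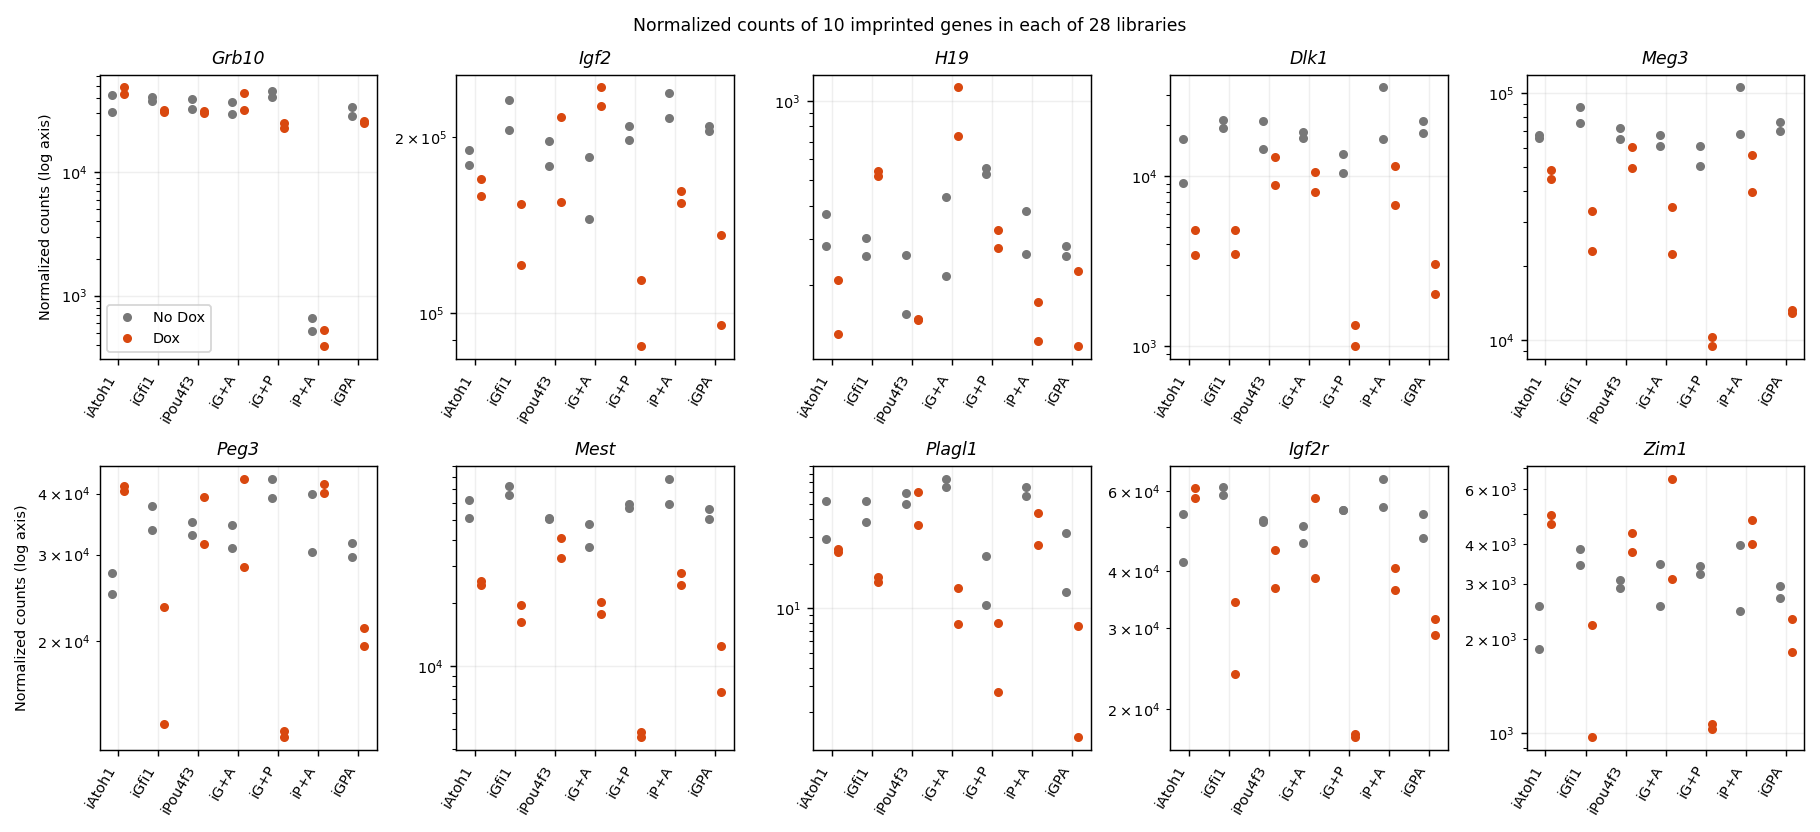
Each panel gives the normalized counts of 1 imprinted gene on a log axis against the line, with a point for each library (grey, No Dox, orange, Dox, 2 libraries per group). Grb10 sits at 390 to 654 in the 4 iP+A libraries and at 22828 to 48691 in the other 24, while Dlk1, Meg3 and Mest lie lower with Dox than without in all 7 lines.

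None of the nearest protein-coding genes on both sides of Grb10 on chromosome 11 had a difference of that size in iP+A. Fignl1 (chr11:11687434-11708965), an AAA ATPase gene, had 2879 and 3167 normalized counts in the untreated iP+A libraries and 2564 to 3906 in the other untreated lines. Ddc (chr11:11714104-11798047), which encodes the decarboxylase of dopamine and serotonin synthesis and is itself imprinted in some tissues, had 326 and 426 against 203 to 387. Its log2 difference was 0.49 ± 0.17 (SE) with an adjusted p of 0.0769. On the other side, Cobl (chr11:12136611-12364963), an actin nucleator gene, had 48.8 and 335 against 28.5 to 196. The next gene beyond Fignl1, Ikzf1 (chr11:11585006-11672929), a transcription factor gene of blood cells, was lower in untreated iP+A, at 595 and 665 normalized counts against 1236 to 3094 (log2 difference -1.51, adjusted p = 0.00038). Blood genes moved with it. Of 10 blood genes, 7 were lower in untreated iP+A at an adjusted p under 0.05 and 0 higher, among them Tal1 (-1.41), Gata1 (-1.31) and Gfi1b (-1.19), where 5.16% of all genes were lower. The summed level of the 10 was 105884 to 123555 normalized counts in untreated iP+A, 72998 to 142545 in iG+P and 179714 or more in the other untreated lines, and its part in the levels of Ikzf1 and of the imprinted genes was not tested.

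**Figure D2:**
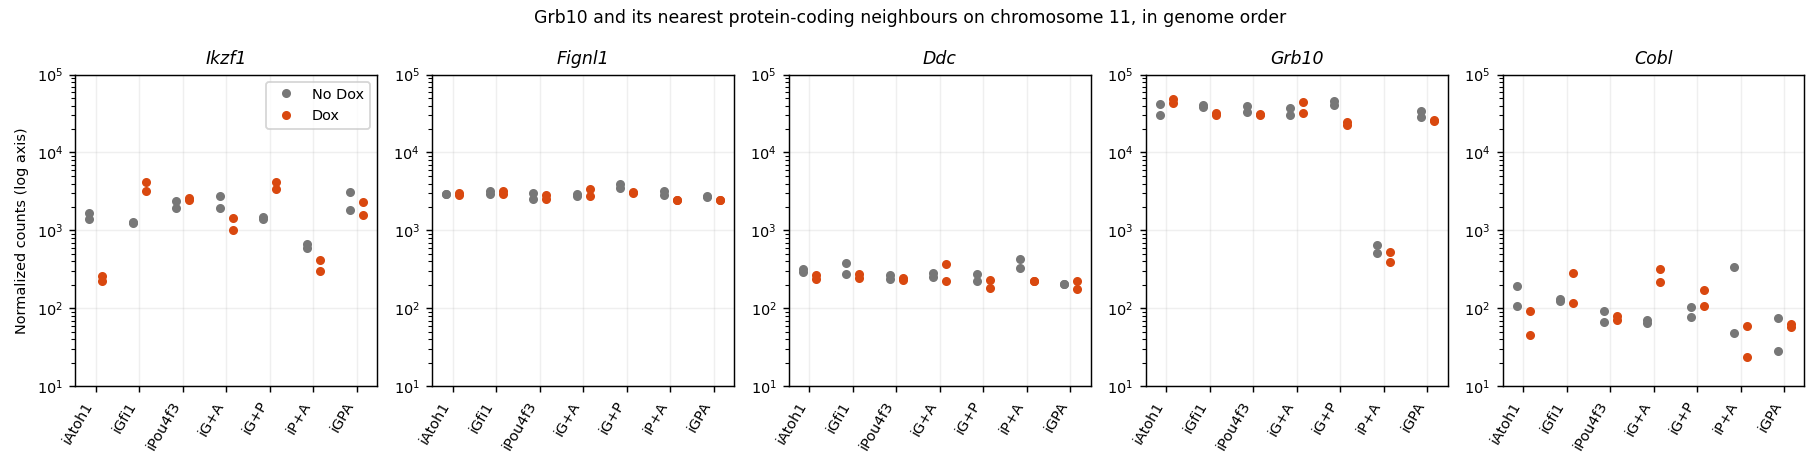
Normalized counts (log axis, the same range in every panel) of Grb10 and the nearest protein-coding genes on chromosome 11, in genome order from left to right, against the line, with a point for each library (grey, No Dox, orange, Dox). Grb10 is at 390 to 654 in iP+A, Fignl1 is at 2439 to 3167 there, and Ikzf1 is lowest without Dox in iP+A.

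In the 6 lines other than iP+A, Grb10 did not differ between untreated lines beyond the threshold (adjusted p = 0.283 in a limma fit without iP+A, in which 4.08% of genes differed). From the highest to the lowest, the untreated order was iG+P, iGfi1, iAtoh1 and iPou4f3, iG+A, iGPA, and the libraries of neighbours in this order overlapped, apart from iG+P, at 40945 and above, and iGfi1, at 40614 and below. The effect of Dox on Grb10 differed between these 6 lines (adjusted p = 0.00471), as it did for 48.9% of all genes in that fit. In iG+P, the Dox libraries had 22828 and 24923 normalized counts and did not overlap with the untreated ones. Their log2 difference was -0.86 ± 0.16 (SE) with an adjusted p of 0.000546, which is under the size of 1.5 used here for a call. The other 5 lines gave log2 differences from -0.33 in iGfi1 to 0.35 in iAtoh1, each with an adjusted p above 0.05. In iP+A itself the Dox difference was -0.36.

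By a rule on likeness over all 28 libraries, the genes most correlated with Grb10 on the log2 scale were Ano1 (Pearson r = 0.795), Upf3b (0.785), C330007P06Rik (0.774), Zdhhc14 (0.773) and Lrpprc (0.768). Over the 14 untreated libraries they were Mamld1 (0.949), Ntng1 (0.932) and Pold3 (0.907). These values describe libraries that share lines and are led by the 4 of iP+A, or the 2 of them without Dox. Ano1 averaged 544 normalized counts in untreated iP+A against 975 in the other lines, and Ntng1 averaged 2.88 against 174. Over the 24 libraries without iP+A the closest genes were others, led by Lifr (0.882) and Dgkk (0.881).

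The other 9 genes were close to level between the untreated lines. Igf2 was at 144715 to 237812 normalized counts in the 14 untreated libraries, and its highest line mean was 1.37 times its lowest. The same ratio was 1.25 for Igf2r, 1.55 for Meg3, 1.56 for Peg3, 1.63 for Mest and 1.66 for Zim1, and 2.09 for Dlk1. It was larger for the 2 genes of low counts, 2.61 for H19 and 4.20 for Plagl1. In a test of any difference between the 7 untreated lines 0 of these 9 genes passed an adjusted p of 0.05, against 12.1% of all genes, and 3 had an unadjusted p under 0.05. With the replicate number as a block 1 did, H19 (adjusted p = 0.119 without the block and 0.0215 with it). The H19 libraries of untreated iG+P were the highest, at 557.2 and 527.7 normalized counts, and those of the other lines ran from 154.9 to 430.9.

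Taken 1 line against the mean of the other 6, none of the 9 genes was called in any untreated line by limma at an adjusted p under 0.05 and a log2 difference of at least 1.5. Between 1 and 5 of the 9 had an unadjusted p under 0.05 in each. The share of all genes called was 0.00594% for iAtoh1, 0.0178% for iGfi1, 0.0119% for iPou4f3, 0.440% for iG+A, 0.766% for iG+P, 0.404% for iP+A and 0.0297% for iGPA, so calls were rare among all genes too. The smallest adjusted p among them was that of Mest in iG+A, whose untreated libraries had 36854 and 47782 normalized counts (log2 difference -0.48, adjusted p = 0.0432). In untreated iP+A, where Grb10 was low, all 9 had a log2 difference above 0, with a median of 0.23 against 0.03 over all genes, and none had an adjusted p under 0.05. They ran from 0.05 for H19 to 0.75 for Plagl1.

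Within the untreated EBs the 10 genes covered a wide range of level. Per kilobase of annotated exon, the median of the 14 untreated libraries was 36625 normalized counts for Igf2, 14325 for Mest, 5664 for Igf2r, 3883 for Grb10, 3754 for Meg3, 3045 for Dlk1, 2505 for Peg3, 828 for Zim1, 119 for H19 and 7.04 for Plagl1. Igf2 and H19, which answer to 1 control region from opposite parental copies, were thus far apart. Per kilobase, Igf2 was 162 to 549 times H19 in the untreated libraries and 93.5 to 631 times over all 28. Plagl1 had 10.5 to 74.1 normalized counts in the untreated libraries, so its differences rest on few reads.

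Dlk1, Meg3 and Mest were the genes most often called lower in the Dox libraries. In each of the 7 lines both Dox libraries had less of each of the 3 than both untreated libraries. Dlk1 was called in 4 lines, Meg3 and Mest in 3, and the lines with the largest falls were iG+P and iGPA. Over the mean of the 7 lines, Dlk1 fell by 1.89 on the log2 scale (SE 0.13) and Mest fell by 1.74 (SE 0.07), both called, while the mean for Meg3 was -1.35 ± 0.08 (SE), with an adjusted p of 1.07e-10 but under the size for a call. These were 2 of the 9 genes tested, Grb10 left out, against 5.39% of all genes.

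Dlk1 had 10373 and 13401 normalized counts in the untreated iG+P libraries and 996.8 and 1333 with Dox, a log2 difference of -3.35 ± 0.35 (SE, adjusted p = 6.42e-07). In iGPA it went from 17825 and 20958 to 2032 and 3024, and in iGfi1 from 21212 and 19043 to 3480 and 4801. The groups stood apart in all 3 lines, with differences of -2.96 in iGPA and -2.30 in iGfi1. In iAtoh1 the levels were 9140 and 16397 without Dox and 3419 and 4804 with it, a difference of -1.60 ± 0.35 (SE, adjusted p = 0.00274). That call was lost without untreated replicate 2, at -1.17, without Dox replicate 1, at -1.35, and when only the 2 groups of iAtoh1 were fitted.

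Meg3, the noncoding RNA expressed from the opposite copy of the same domain, was also lower with Dox in all 7 lines, to differing extents. In iAtoh1, where Dlk1 was called, its difference was -0.51 (adjusted p = 0.096), and in iG+A, where Dlk1 was not called at -0.92, Meg3 was not called either at -1.22. It had 50730 and 60982 normalized counts in untreated iG+P and 10257 and 9450 with Dox, a difference of -2.50 ± 0.22 (SE, adjusted p = 8.13e-08). In iGPA it went from 76554 and 70040 to 12908 and 13216, a difference of -2.49. In iGfi1 the difference was -1.56, and it moved below the size for a call, to -1.45 and -1.29, without untreated replicate 1 or Dox replicate 1. Over the 28 libraries the log2 levels of Meg3 and Dlk1 correlated by 0.921 and those of Meg3 and Mest by 0.963, where libraries share lines and the Dox groups set most of the range.

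Mest had 59069 and 56658 normalized counts in untreated iG+P and 4564 and 4841 with Dox, the largest fall among the 10 genes in any line, of -3.62 ± 0.19 (SE, adjusted p = 1.79e-10). It went from 56136 and 50429 to 7551 and 12494 in iGPA (log2 difference -2.45) and from 65599 and 72601 to 16251 and 19641 in iGfi1 (-1.95). In the iAtoh1, iG+A and iP+A lines its differences were -1.16, -1.14 and -1.39, each with an adjusted p under 0.05 and under the size for a call. The smallest was in iPou4f3, where 50627 and 50234 without Dox stood against 40889 and 32847 with it (-0.46, adjusted p = 0.193).

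**Figure D3:**
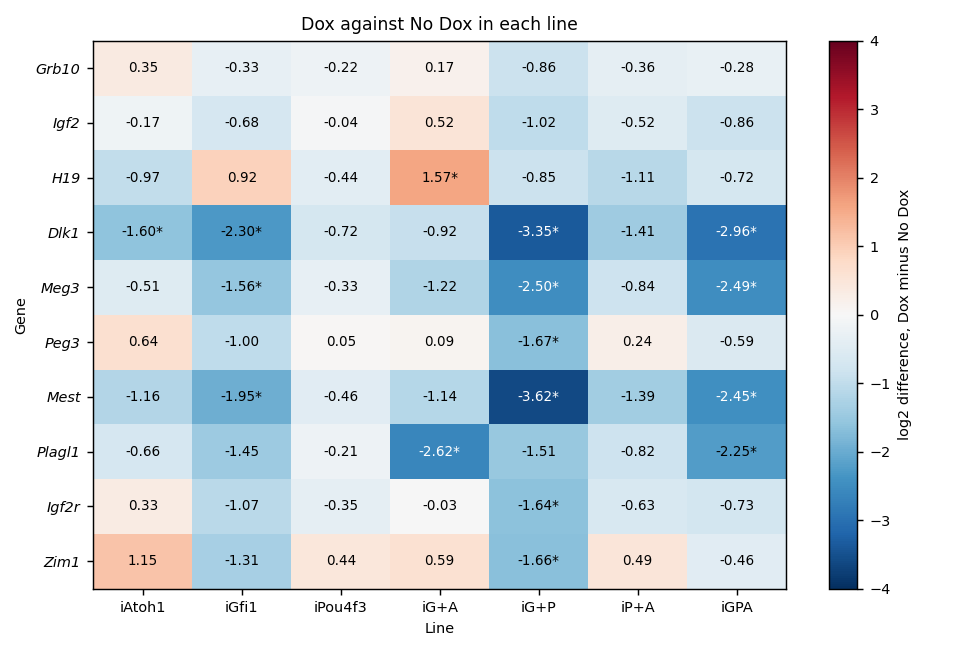
Log2 difference of Dox minus No Dox for the 10 genes (rows) in the 7 lines (columns), in colour from -4 (blue) to 4 (red) and in figures, with a star where limma called it (adjusted p under 0.05 and a log2 difference of at least 1.5, Grb10 in iP+A not tested). The iG+P column is below 0 for all 10 genes, and the rows of Dlk1, Meg3 and Mest are below 0 in all 7 lines.

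By line, iG+P had the most calls, with 6 of 10 genes against 10.5% of all genes, and all 6 were lower with Dox. Besides Dlk1, Meg3 and Mest these were Peg3, Igf2r and Zim1. The pair of neighbours Peg3 and Zim1 fell together, Peg3 from 42879 and 39155 to 12684 and 13088 normalized counts (log2 difference -1.67, adjusted p = 3.61e-06) and Zim1 from 3231 and 3414 to 1034 and 1071 (-1.66, adjusted p = 0.00059). Igf2r went from 54476 and 54562 to 17298 and 17626 (-1.64), just past the size for a call, and was at -1.49 after quantile normalization. Plagl1, at 10.52 and 22.59 against 2.752 and 7.965, had a difference of -1.51 and an adjusted p of 0.0515, which became 0.00427 with the replicate block. The median over the 10 genes in iG+P was -1.65, against 0.00 over all genes.

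In iGPA 4 of 10 genes were called, all lower, against 14% of all genes. They were Dlk1, Meg3, Mest and Plagl1. Plagl1 had 12.97 and 31.92 normalized counts without Dox and 1.359 and 7.65 with it, a difference of -2.25 (adjusted p = 0.00382), on few reads. Its call was lost without untreated replicate 2, without Dox replicate 1, and when only the 2 groups were fitted. In iGfi1 3 of 10 were called, against 4.82%, namely Dlk1, Meg3 and Mest, and Igf2, Peg3, Igf2r and Zim1 were also lower at an adjusted p under 0.05 with differences from -0.68 to -1.31, which made 7 of 10 where 26.5% of all genes passed in either direction.

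In iG+A 2 of 10 were called, against 12.3% of all genes, and they moved in opposite directions. Plagl1 fell from 74.12 and 64.86 normalized counts to 13.73 and 7.888 (log2 difference -2.62, adjusted p = 0.00143). H19 rose from 217.1 and 430.9 to 734.3 and 1123 (1.57 ± 0.35 (SE), adjusted p = 0.00159). It was the only one of the 10 genes called higher in any line, and the call was lost without untreated replicate 1 (1.07), without Dox replicate 2 (1.26) and after quantile normalization (1.43). In iAtoh1 only Dlk1 was called, 1 of 10 against 5.40%, and Zim1 and Peg3 were higher with Dox at an adjusted p under 0.05 (differences of 1.15 and 0.64), where 23.1% of all genes passed in either direction.

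In iP+A 0 of the 9 genes tested were called, against 7.29% of all genes, and 6 of them were lower at an adjusted p under 0.05, where 24.9% of all genes passed in either direction, with differences from -0.52 for Igf2 to -1.41 for Dlk1. The same 6 had an unadjusted p under 0.05. The count of called genes became 2 without untreated replicate 2 and 1 without Dox replicate 1 of iP+A. In iPou4f3 0 of 10 were called, against 2.08%, and 1 had an unadjusted p under 0.05, Mest.

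The size of the Dox effect differed between the 7 lines for 8 of the 9 genes tested, all but Plagl1, where 51.9% of all genes did so. Plagl1 had an adjusted p of 0.13, and 0.00946 with the replicate block. Between the 4 lines with Gfi1 in the cassette and the 3 without it, 0 of 9 genes were called, against 6.84% of all genes, though 8 of 9 had an adjusted p under 0.05, where 35.8% of all genes did. Of these 8, 7 had a more negative Dox effect with Gfi1, from -0.65 for Igf2r to -1.40 for Zim1, and H19 had a more positive one, by 1.07 ± 0.27 (SE, adjusted p = 0.00414). Igf2 was the exception (-0.27, adjusted p = 0.128). Quantile normalization called 1 of the 9.

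For the lines with and without Atoh1, 0 of 9 genes were called, against 4.59% of all genes, and 4 had an adjusted p under 0.05, where 32.3% of all genes did, all with a Dox effect that was less negative or more positive in lines with Atoh1. They were Peg3 (0.97), Zim1 (1.29), Igf2r (0.76) and Mest (0.47), and 5 had an unadjusted p under 0.05. For Pou4f3 0 of 9 were called as well, against 2.34%, with 4 at an adjusted p under 0.05, where 10.0% of all genes were, and 6 at an unadjusted one. Those 4 had a more negative effect with Pou4f3, H19 by -1.29, Igf2r by -0.58, Mest by -0.56 and Igf2 by -0.50. The 3 comparisons reuse the same libraries.

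Markers of other cell types also differed between Dox and untreated libraries, and their order over the lines was not the same from list to list. The summed level of 14 fibroblast and mesenchyme genes was 15889 to 19973 normalized counts in iG+P Dox, 14914 to 19941 in iGPA Dox, 27958 to 59443 in iG+A Dox and 47231 to 176820 in the other Dox libraries, against 77822 to 238395 in the untreated libraries. Of the 14, 11 were called lower in iGPA, 7 in iG+P and in iG+A, 3 in iAtoh1, iGfi1 and iP+A, and 0 in iPou4f3, and 1 was called higher in iGPA and in iP+A. Of all genes, 5.31% were called lower in iGPA, 5.36% in iG+P and 4.95% in iG+A. That share was 2.52% in iAtoh1, 2.67% in iGfi1, 2.58% in iP+A and 0.606% in iPou4f3. In iG+A, Dlk1, Meg3 and Mest were not called: their log2 differences of -0.92, -1.22 and -1.14 had adjusted p-values of 0.0389, 0.000211 and 0.000104 (limma) but were smaller than the limit of 1.5. The sum of 14 endoderm genes was 5330 to 8624 in the Dox libraries of the 4 lines with Gfi1 and 13121 to 18733 in those of the other 3, against 16185 to 27358 untreated. Of these 14, 6 were called lower in iG+A and iGPA, 5 in iAtoh1, iGfi1 and iG+P, and 1 in iPou4f3 and iP+A. The sum of 12 neuronal genes was 23367 to 29520 in iP+A Dox, 7943 to 7973 in iGPA Dox and 1014 to 4322 in the other Dox libraries, against 1207 to 2234 untreated. Of 10 blood genes, 6 were called lower in iAtoh1, 5 in iG+A and in iP+A, 4 in iGPA, 1 in iG+P and 0 in iPou4f3, and 1 was called higher in iGfi1. Their sum was 16336 to 59973 in the Dox libraries of the 4 lines with Atoh1, 39852 to 89598 in iG+P Dox and 201165 to 366780 in iGfi1 and iPou4f3 Dox. Pluripotent genes summed to 2992 to 13061 with Dox and 5465 to 28899 without. No gene of these lists was at 0 in every library. Their part in the falls of the imprinted genes was not tested.

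Of 45 other imprinted genes listed, 44 were tested. In their Dox effects 10 were called in iGfi1 (9 lower), 11 in iG+A (8 lower), 13 in iG+P (11 lower) and 15 in iGPA (10 lower), against 2 in iAtoh1 (1 lower), 1 in iP+A (lower) and 0 in iPou4f3, beside the shares of all genes given above for each line. The 4 with the largest mean effect among those called were Klf14, a zinc finger gene near Mest (-2.17), Magel2, a ubiquitin ligase regulator of the Prader-Willi region (-1.99), Asb4, an ankyrin repeat gene (-1.83), and Mirg (-1.64). Asb4 was at -3.00 in iGfi1, -2.80 in iG+A, -3.42 in iG+P and -3.06 in iGPA, at -0.30 in iPou4f3 and at -0.09 in both iAtoh1 and iP+A. The rest of the Dlk1 and Meg3 domain was also lower on average, Rtl1 by -1.58 and Rian by -1.40, both called in iG+P and iGPA, and Rtl1 also in iG+A and Rian in iGfi1. Dio3, a deiodinase gene at the far end of the domain, had a mean of -1.59 and was called lower in 5 lines, from -1.76 in iP+A to -3.33 in iGPA, with -0.25 in iPou4f3 and 0.87 in iG+P (adjusted p = 0.246).

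Of 14 genes that set or keep imprints, 2 were called lower in each of iG+A, iG+P, iP+A and iGPA, and 1 in each of iAtoh1 and iGfi1, which is near the share of all genes called in those lines (4.82% to 14%). Those with the largest mean effects were Dppa3, a protector of maternal marks in the egg that is also a pluripotency gene (-3.11), and Dnmt3l, a cofactor of DNA methyltransferases (-1.63). In untreated iP+A 0 of the 14 were called, against 0.404% of all genes. By limma, Setdb1 (-0.29), Tet3 (-0.24) and Ctcf (-0.18) were lower there at an adjusted p under 0.05, below the size for a call. At that p, 5.16% of all genes were lower, and no gene of the list was higher. Of 16 genes of IGF and insulin signalling, 0 to 2 were called in any line, where 2.08% to 14% of all genes were. Igfbp5, which encodes an IGF binding protein, was called higher in iAtoh1 (1.59) and Igfbp4, another, lower in iG+P (-1.57). Among these genes Grb14, an adaptor of the same family as Grb10, had a mean Dox effect of -1.32. Untreated, it was at 613 and 1356 normalized counts in iP+A against 198 to 726 in the other lines (log2 difference 1.04 ± 0.32 (SE), adjusted p = 0.0457), under the size for a call.

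Other imprinted genes also differed in untreated iP+A, and these were picked after their values were seen. The genes were sorted by the copy that is normally expressed, from general knowledge and for some of them in particular tissues only. Of 27 paternally expressed genes without Nnat, which is described apart, 4 were higher in untreated iP+A at an adjusted p under 0.05, where 4.38% of all genes were, and 0 lower. Of 22 maternally expressed genes without Grb10, 4 were lower, where 5.16% of all genes were, and 0 higher. In untreated iG+A 1 paternally expressed gene was lower, and 1 maternally expressed gene was higher and 1 lower, and in each of the other 5 untreated lines 0 or 1 gene of both classes together passed. The share of all genes that passed in either direction was 8.79% in iG+A, 0.0238% to 3.46% in those 5 lines and 9.53% in iP+A. Whether the counts differ between lines was not tested. Members of both classes went both ways, and the medians in iP+A were 0.22 for the paternal and 0.16 for the maternal class, both above 0.

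The 4 that were higher were Nap1l5, Peg10, Sgce and Impact. Peg10, a gene derived from a retroelement that the placenta needs, had 195927 and 211000 normalized counts in untreated iP+A and 84791 to 149547 in the other untreated lines (log2 difference 0.98 ± 0.14 (SE), adjusted p = 0.00112). Its neighbour Sgce, which encodes a sarcoglycan, had 7412 and 4659 against 2372 to 3374 (0.95, adjusted p = 0.00182). Impact, a regulator of translation control, had 9380 and 9510 against 4355 to 6701 (0.85, adjusted p = 0.000429). The iP+A libraries of Sgce and of Impact, with and without Dox, were above all 24 others. For Nap1l5 the levels were 27.6 and 18.3 against 0 to 15.8, on few reads.

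The 4 that were lower were Ppp1r9a, Asb4, Kcnk9 and Commd1. Ppp1r9a, an actin-binding scaffold gene, and Asb4 lie on chromosome 6 in the cluster of Peg10 and Sgce (chr6:4853004-5115661 and chr6:5333386-5383022, with Peg10 at chr6:4697306-4710514 and Sgce at chr6:4624350-4697204). Ppp1r9a had 1033 and 1296 normalized counts in untreated iP+A and 1741 to 3693 in the other lines (log2 difference -1.27 ± 0.18 (SE), adjusted p = 0.000966), and Asb4 had 2027 and 1348 against 2747 to 5298 (-1.09 ± 0.16 (SE), adjusted p = 0.00112). In this cluster the 2 paternally expressed genes were thus higher and these 2 maternally expressed ones lower in 2 of 2 untreated iP+A libraries. Kcnk9 was at 2.76 to 3.05 against 2.93 to 25.5, and Commd1 at 1520 to 1641 against 1665 to 2111.

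**Figure D4:**
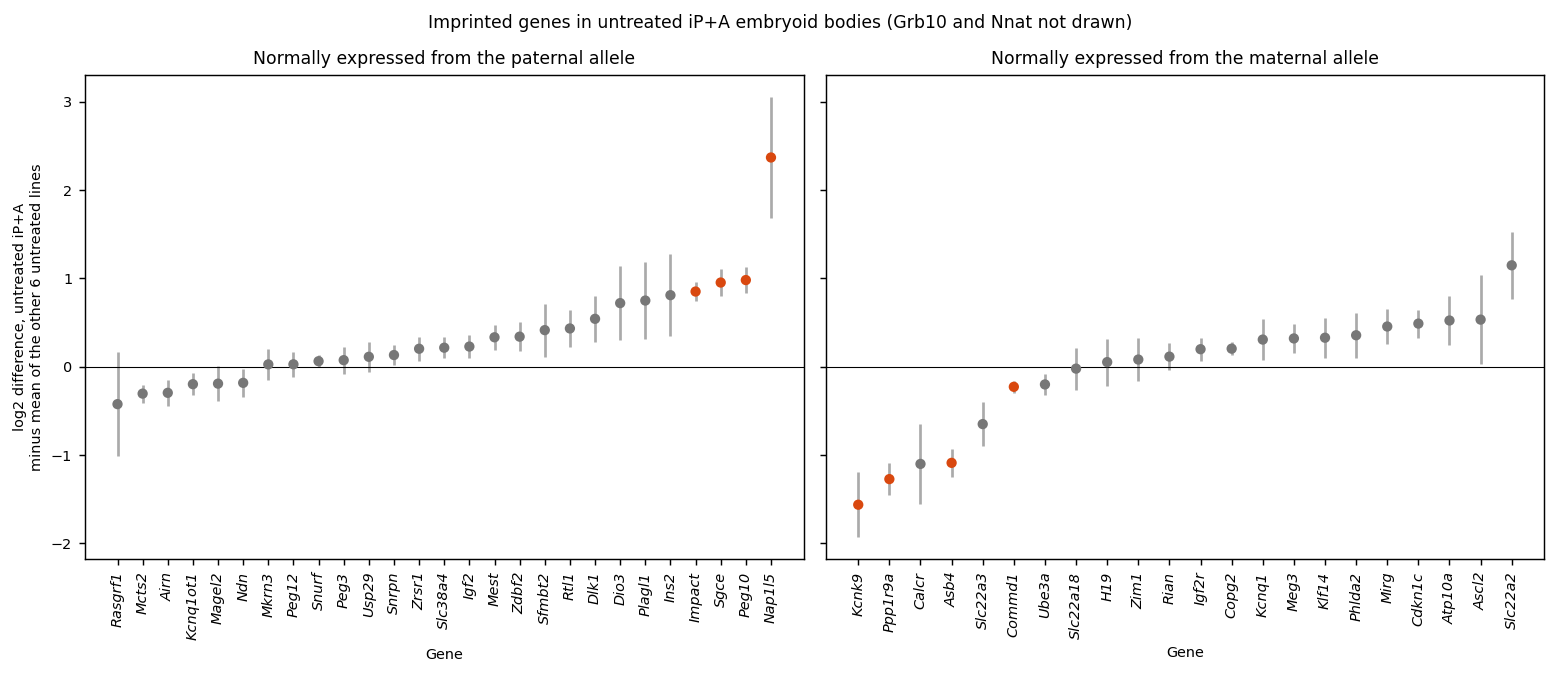
Log2 difference of untreated iP+A minus the mean of the other 6 untreated lines for paternally expressed (left) and maternally expressed (right) imprinted genes, with bars for 1 SE and orange points at an adjusted p under 0.05. The 4 orange points on the left are above 0 and the 4 on the right below 0, and Nnat, listed at 0 in 4 of the other 6 lines, and Grb10 are not drawn.

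By the call rule of size and adjusted p, 2 of the 43 other imprinted genes without Nnat passed in untreated iP+A, Nap1l5 higher and Kcnk9 lower, both on few reads, against 0.404% of all genes. Nnat passed too, with 4 of the other lines listed at 0, and its untreated iP+A levels of 2476 and 1916 normalized counts lay among those of iAtoh1 and iPou4f3. Between all untreated lines 8 of 44 passed the test of any difference, against 12.1% of all genes. Nnat, a paternally expressed gene for a small membrane protein of neurons that was also picked after its values were seen, was listed at 0 in all 16 libraries of the 4 lines with Gfi1 in their cassette and at 1089 to 6367 normalized counts in all 12 libraries of the 3 lines without it. No other gene of the table was at 0 in the first set and at 50 or more in all of the second, and none had the reverse pattern. The 0 was there without Dox, in iGfi1, iG+A, iG+P and iGPA alike.

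Blcap (chr2:157382098-157397010), the gene that encloses Nnat (chr2:157385814-157388258) on the opposite strand, was at 2017 to 3440 normalized counts in the untreated lines other than iP+A and at 2309 and 2865 in iP+A. In Dox libraries Nnat was at 6367 and 4611 in iAtoh1 against 2710 and 2244 without Dox, and at 4484 and 3521 in iP+A against 2476 and 1916, without overlap in either. In iPou4f3 it was at 2458 and 1089 with Dox and 2022 and 1159 without, which overlapped. No fold is given against the lines listed at 0.

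**Figure D5:**
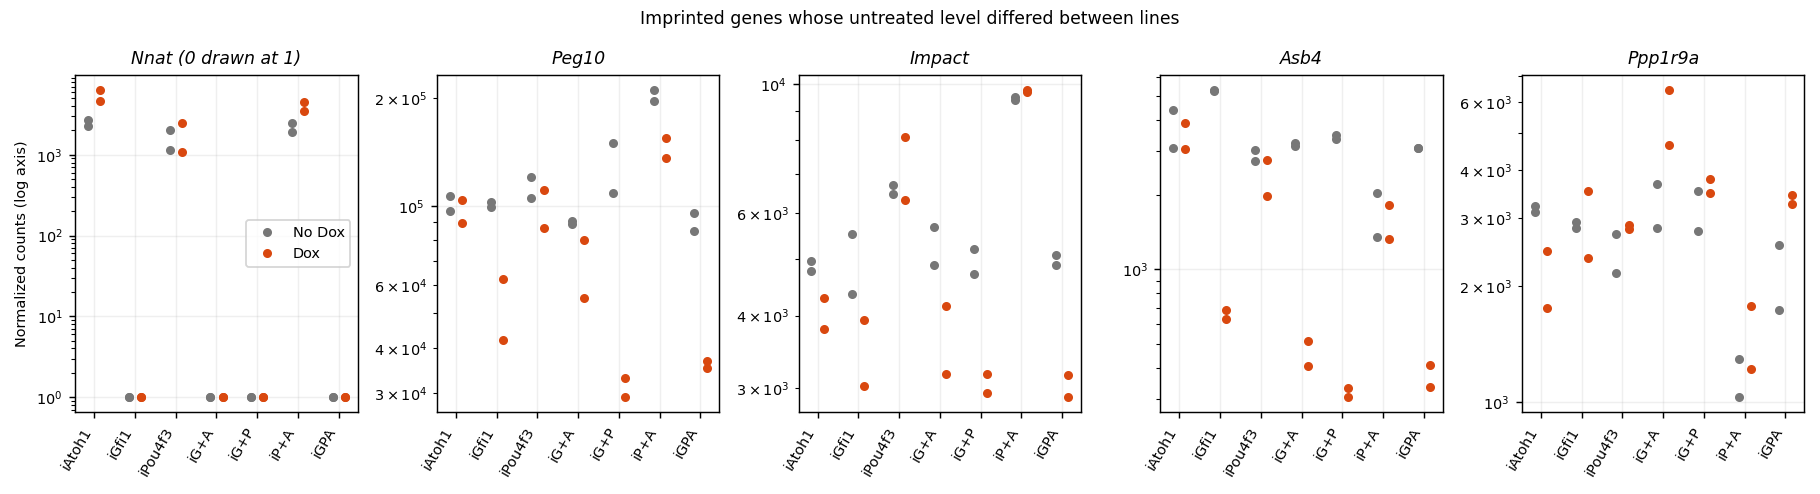
Normalized counts (log axis, a different range in each panel) of 5 imprinted genes outside the 10 against the line, with a point for each library (grey, No Dox, orange, Dox). Nnat is listed at 0 (drawn at 1) in iGfi1, iG+A, iG+P and iGPA, and iP+A is highest for untreated Peg10 and Impact and lowest for untreated Asb4 and Ppp1r9a.

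As a check of the labels, the genes of the cassettes were at 12816 to 21242 (Atoh1), 8119 to 12487 (Gfi1) and 4694 to 19883 (Pou4f3) normalized counts in the 8 Dox libraries that should express each, and at 2.22 to 120 in the other 20. Estimated depth was 30.4 to 48.0 M reads per library, so counting error is small for 8 of the 10 genes and larger for H19 and Plagl1.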

How the data were processed

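RNA-seq of 28 libraries was analysed. The authors trimmed reads with cutadapt, pseudo-aligned them with Kallisto to UCSC knownGene transcripts (mm9), summed them to genes and normalized them with DESeq2, and the values they deposited are log2(normalized count + 1), 1 column per library, with 0 columns unused. Versions are not given in the sources used here. Normalized counts are 2 to the power of a value, minus 1. Sums were 36.8 to 40.4 M per library. Of the values up to 20, no more than 70.6% to 79.4% were whole multiples of 1 read's value (tolerance 0.05), so no count test was run. The authors' summing can split or merge reads of overlapping transcripts.

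A gene was kept where 2 or more libraries reached 10 normalized counts, and a limma model (version 3.58.1, R 4.3.3) took in all 14 groups (variance trend, 14 residual degrees of freedom, Benjamini-Hochberg adjustment over 16837 genes). Differences are on the log2(value + 1) scale, which understates those of low genes. A gene was called at an adjusted p under 0.05 and a log2 difference of at least 1.5, and in tests of any difference between lines at an adjusted p under 0.05. Grb10 was tested in a fit without iP+A and in the Dox effects of the other lines. The fits were tested on simulated data.

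The 10 genes and all lists were chosen with earlier results of these data known. Genes named are the 10, in each list the 4 of largest mean Dox effect among those called in a line, the 5 and 3 most like Grb10 over all and over untreated libraries, and genes said to be picked after their values were seen.

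The series record describes replicates as different clones, and deviations of equally numbered Dox and untreated libraries correlated weakly, by 0.10 to 0.25 in the 7 lines. Whether equal numbers mark the same clone is not known. The main fit therefore did not pair libraries, and the replicate number entered only as a block in an alternative fit. The settings varied were the pseudocount (0.5, 5), the filter (none, 50), the scaling (quantile, 75th percentile), the block, the groups fitted, the variance trend, the size (1) and the libraries, each left out once.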

Additional observations from a re-analysis of the deposited data

Results flagged for a closer look

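The size of the Dox effect differed between the 7 lines for 8 of the 9 genes tested, by a limma test of the difference itself. The adjusted p was 8.25e-07 for Mest, 2.63e-05 for Meg3, 3.12e-05 for Peg3, 4.82e-05 for Igf2r, 0.000305 for Zim1, 0.000586 for Igf2, 0.000737 for H19 and 0.000921 for Dlk1. In the fit without iP+A it was 0.00471 for Grb10. The same test passed for 51.9% of all genes over 7 lines and 48.9% over 6. Mest ranged from -3.62 in iG+P to -0.46 in iPou4f3, Zim1 from -1.66 in iG+P to 1.15 in iAtoh1, and H19 from -1.11 in iP+A to 1.57 in iG+A.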

How the results depend on the processing

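No result changed direction, and 758 of the 790 alternative values for counts of called genes lay within 1.5 times the main count. Most settings left out 1 library, and for the Dox effect of 1 line most of these libraries belong to other lines. The difference itself cannot change there, so that total says little on how stable the calls are. With a size of at least 1 in place of 1.5, the genes called were 3 in iAtoh1, 6 in iGfi1, 4 in iG+A, 3 in iP+A, 4 in the mean over 7 lines, 7 for lines with against without Gfi1, and 1 each for Atoh1 and Pou4f3, since a smaller size admits more genes. Fitting only the groups compared left 0 in iAtoh1. Quantile normalization gave 1 in iG+A and 1 for Gfi1, and a pseudocount of 5 gave 1 for the untreated lines, and for these the cause was not tested.

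With the replicate block, 1 of 9 genes (H19) differed between untreated lines in place of 0, and Plagl1 was called in iG+P and in the test between lines. The block changed no other call of these 10 genes. Leaving out each library in turn gave 0 to 1 called genes in iAtoh1, 1 to 3 in iG+A, 0 to 2 in iP+A, 0 to 1 for lines with against without Gfi1, 0 to 1 in untreated iG+P and 0 to 2 for the untreated lines, the last only without 1 of the iGPA Dox libraries. Of 682 alternative values for single genes, 670 stayed on the same side of the threshold, and the other 12 concern Dlk1 in iAtoh1, Meg3 in iGfi1, H19 in iG+A, Igf2r in iG+P and Plagl1 in iGPA. Only genes called in the main fit were followed in this way. Most of the libraries left out were of lines other than the one compared, which cannot move a difference.

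With 2 libraries per group and clones as replicates, the tests carry the spread between 2 clones only. Plagl1 is limited by few reads. Parental alleles, methylation and gene copy number were not measured.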
